A study of Mus musculus with 2 samples.

Results

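Described here are 10 genes of the Notch pathway: the receptors Notch1, Notch2, Notch3 and Notch4, the nuclear partners Rbpj and Maml1, and the target genes Hes1, Hey1, Dtx4 and Nrarp. They were chosen by name, with earlier results of these data known. Each symbol was matched to its gene identifier, giving 10 of the 43346 mouse genes. Notch receptors sit in the cell membrane and are cut when a ligand on a neighbouring cell binds them, first by an ADAM protease and then by the gamma-secretase complex. The freed intracellular part enters the nucleus and joins the DNA-binding protein RBPJ and a Mastermind coactivator, and this complex switches on genes such as Hes1, Hey1, Dtx4 and Nrarp, whereas RBPJ without Notch recruits corepressors. In blood the pathway is known for T cell commitment in the thymus through Notch1, for marginal zone B cells through Notch2, and for the emergence of stem cells in the embryo.

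The data are total RNA sequencing of 2 libraries, each prepared from a pool of 100 hematopoietic stem cells, the rare bone marrow cells that sustain all blood lineages. Both libraries form a single group, from male adult C57BL/6J mice of 5 to 6 weeks with no treatment or genetic change named in the labels, numbered as biological replicates 1 and 2. The question set to the data is which receptors the cells transcribed and how the levels of the target genes stood against them in each library. The labels give both pools the same donor identifier under different biosample identifiers. Separate animals and sorting gates are both not given in the sources used here, and part of the spread between the libraries may be technical. There is no second condition, the smallest p of an exact sign-flip test with n = 2 is 0.5, and no test is reported. Levels are TPM, a count divided by transcript length and scaled to 1000000 per library, so that genes can be compared with each other, and a mean ± SD is over n = 2 libraries throughout. Detection required both a level of 1 TPM and 10 expected counts, and a difference between libraries is that of log2(TPM + 1), replicate 1 minus replicate 2, which understates the differences of low genes.

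Replicate 1 held 48313341 expected counts and replicate 2 held 28947093, of which 19528380 and 10411450 lay on nuclear protein coding genes. Of 10 stem and progenitor markers, 9 were detected in both libraries, with a summed level of 640.8 and 454.8 TPM in replicates 1 and 2; Hlf, which encodes a stem cell transcription factor, was highest (161.7 and 97.98 TPM), and Slamf1, the gene of the sorting marker CD150, was lowest (2.87 and 0.36 TPM). Of 10 T cell markers, summing to 10.6 and 12.6 TPM, 2 were detected in both libraries, the kinase gene Lck, which was highest (1.19 and 6.95 TPM), and the adaptor gene Lat (1.98 and 4.62 TPM). The receptor complex genes Cd3e (3.56 and 0 TPM) and Cd3g (3.18 and 0 TPM) were detected in replicate 1 alone, and Cd3d, Cd8a, Cd8b1 and Trac had no count in either library. Mature neutrophil markers summed to 0.50 and 315.9 TPM in replicates 1 and 2, from Retnlg with no count to the granule gene Ngp (0.09 and 139.5 TPM), and B cell markers to 11.97 and 40.2 TPM, from Cr2 (0 and 0.14 TPM) to Cd79a (7.36 and 7.43 TPM). Erythroid markers summed higher than the stem and progenitor markers, to 2151 and 1885 TPM, with 10 of 10 detected in both libraries. Megakaryocyte markers summed to 84.0 and 94.3 TPM, with 6 of 10 detected in both libraries. The part of any such other cells in the Notch values was not tested. In pools of this kind, fewer cells expressing a gene and less of its RNA per cell cannot be told apart.

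Of the 4 receptors, 2 passed the detection rule, as did both nuclear partners and 2 of the 4 target genes. These 6 of 10 genes (60.0%) were detected in both libraries, beside 24.7% of all 43346 mouse genes and 45.5% of the 21474 protein coding genes. The other 4, Notch3, Notch4, Hes1 and Hey1, stayed under 1 TPM in both libraries, although each had a count in at least 1 of them. By mean level the order ran Notch2, Rbpj, Notch1, Maml1, Dtx4, Nrarp, Hes1, Notch4, Hey1 and Notch3. The ranges of the 2 libraries overlapped between Rbpj and Notch1, between Dtx4 and Nrarp, and between all neighbours among the last 4, so those places in the order are not separated by these data.

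**Figure D1:**
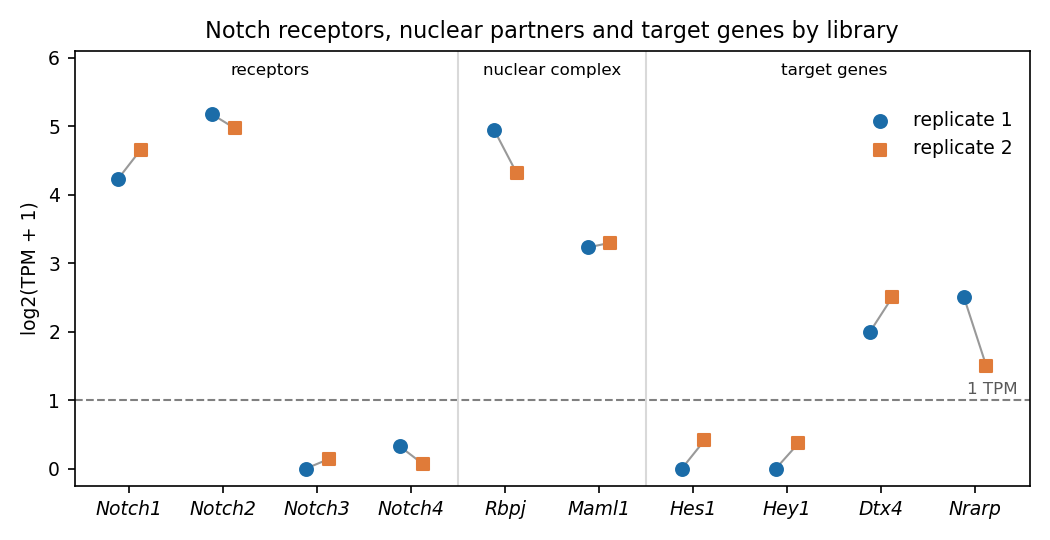
Level of each of the 10 Notch genes as log2(TPM + 1), with a circle for replicate 1, a square for replicate 2 and a line joining the libraries; the dashed line marks 1 TPM. Notch1, Notch2, Rbpj, Maml1, Dtx4 and Nrarp lie above the dashed line in both libraries, and Notch3, Notch4, Hes1 and Hey1 lie below it in both.

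Notch2 was the most abundant receptor transcript in each library. Notch2, the receptor known for its need in marginal zone B cells, stood at 35.1 and 30.3 TPM in replicates 1 and 2 (32.7 ± 3.34), from 11680 and 5711 expected counts. This placed it at the 90.8th and the 90.5th percentile of protein coding genes, a level that hardly moved between the pools (a log2 difference of 0.20). Notch1, the receptor of T cell commitment, stood at 17.8 and 24.2 TPM in replicates 1 and 2 (20.96 ± 4.54), from 5114 and 2950 expected counts. Every library value of Notch2 was above every library value of Notch1. The ratio of Notch2 to Notch1 was 1.98 in replicate 1 and 1.25 in replicate 2, so the direction was shared and its size was not. Both genes have positions on GRCm38 in GENCODE M21, Notch2 on the plus strand of chromosome 3 (98013527 to 98150361) and Notch1 on the minus strand of chromosome 2 (26457903 to 26516663).

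Notch3, known from vascular smooth muscle, had 1 expected count in replicate 1, listed as 0 TPM, and 14 in replicate 2 (0.10 TPM). Notch4, known from endothelium, had 51 expected counts in replicate 1 (0.25 TPM) and 6 in replicate 2 (0.05 TPM). By these values both were below the detection threshold in both pools, and replicate 1 was the higher library for Notch4 and replicate 2 for Notch3. The authors' own posterior mean TPM for Notch4 was higher, at 1.17 in replicate 1 and 1.71 in replicate 2, and their credibility interval (0.57 to 1.86 TPM in replicate 1, 0.67 to 2.95 TPM in replicate 2) does not contain their listed TPM in either library. Of the 20 listed values of the 10 genes, 11 lay inside their interval, 6 below it and 3 above it. Notch2 lay just above its interval in both libraries, at 35.06 against 33.6 to 34.8 TPM in replicate 1 and at 30.3 against 28.2 to 29.7 TPM in replicate 2. Notch4 has 12 annotated transcripts, and all its counts were put on Notch4-201. The posterior mean of that transcript was 0.24 and 0.05 TPM in replicates 1 and 2. The rest of the gene's posterior mean lay on models with no count. Endothelial markers summed to 75.1 and 43.3 TPM, with 4 of 10 detected in both libraries. These were the adhesion gene Pecam1, which was highest (36.0 and 20.6 TPM), Egfl7 (34.2 and 15.55 TPM), Tek (1.94 and 1.71 TPM) and Emcn (1.88 and 3.31 TPM). Cdh5 and Kdr were among those with no count in either library. Mural and stromal markers summed to 4.52 and 5.96 TPM, almost all of it Pdgfrb (4.52 and 5.76 TPM), with 8 of 10 at a count of 0 in both libraries, Pdgfra among them. Notch3 and Notch4 lie 2.40 Mb apart on chromosome 17 (Notch3 32120820 to 32166852, Notch4 34564268 to 34588503).

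As a share of the summed TPM of all 4 receptors, Notch2 held 66.1% in replicate 1 and 55.5% in replicate 2 (60.8 ± 7.48%). Notch1 held 33.5% and 44.2% (38.8 ± 7.62%), Notch4 0.47% and 0.091%, and Notch3 0% and 0.18%. By listed TPM, Notch2 therefore held most of the receptor signal in both libraries, with a larger share in replicate 1. With the authors' posterior mean TPM the Notch2 share was 56.2 ± 8.73%. On that scale the lead was small in replicate 2, with Notch2 at 28.9 and Notch1 at 27.1 TPM. Of that Notch1 value, 15.3 TPM lay on the full receptor transcript Notch1-201, and most of the rest on short models with few or no counts. The authors' credibility intervals in replicate 2 also overlapped (23.3 to 31.25 TPM for Notch1, 28.2 to 29.7 TPM for Notch2). Counted in reads, with no division by length, Notch2 held 69.3% of replicate 1 (95% exact binomial limits 68.6 and 70.0) and 65.8% of replicate 2 (limits 64.8 and 66.8). These limits do not overlap, so the libraries differed by more than this counting error. The limits take each read as an independent molecule, which amplified reads without molecular identifiers are not. With transcripts annotated as protein coding alone, the Notch2 share was 67.7% and 64.2% (65.9 ± 2.51%), and the libraries lay closer together.

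**Figure D2:**
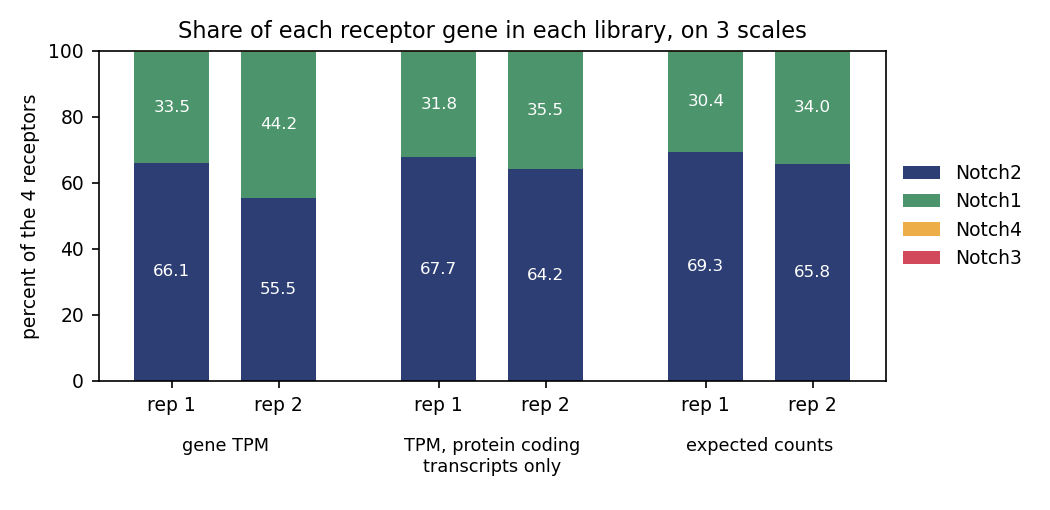
Stacked bars of each receptor's percent of the summed level of Notch1 to Notch4, for each library, from gene TPM, from TPM of protein coding transcripts and from expected counts. Notch2 takes 55.5 to 69.3% and Notch1 30.4 to 44.2% in every bar, while Notch3 and Notch4, each under 0.5%, are too thin to see.

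The transcript tables show where the Notch1 difference lies. Notch1-201, which encodes the full receptor, carried 92.8% of the gene's TPM in replicate 1 and 66.3% in replicate 2, yet its own level was nearly equal, at 16.5 and 16.0 TPM. The retained-intron model Notch1-205 was the only other transcript with at least 10% in a library and a count in both, at 7.18% (1.27 TPM) and 11.2% (2.70 TPM). Most of the rest lay on short models: 8 Notch1 models of the class called processed transcript, 157 to 459 bases long, held no count in replicate 1 and 27.3 expected counts in replicate 2. Those counts were 0.92% of the Notch1 counts of replicate 2 but 19.4% of its Notch1 TPM, 4.69 TPM, since TPM divides a count by the length of its model. Summed over protein coding transcripts, Notch1 stood at 16.5 and 16.8 TPM in replicates 1 and 2 (16.6 ± 0.23), a log2 difference of -0.03 instead of -0.42, and its range then no longer overlapped with that of Rbpj. On that scale the ratio of Notch2 to Notch1 was 2.13 and 1.81. Notch2 has a single annotated transcript in these tables, so its level was the same on either scale.

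Rbpj, the DNA-binding protein to which all Notch receptors pass their signal, stood at 29.9 and 19.0 TPM in replicates 1 and 2 (24.4 ± 7.74), from 5200 and 1828 expected counts. It was higher in replicate 1 by 0.63 on the log2 scale, under the 2-fold mark. Against the summed receptors Rbpj had a log2 ratio of -0.83 in replicate 1 and -1.53 in replicate 2, below the receptors in both libraries. Against Notch1 alone the sign turned, at 0.75 in replicate 1 and -0.35 in replicate 2, although with protein coding transcripts alone Rbpj was above Notch1 in both (0.86 and 0.18). Rbpj lies on the plus strand of chromosome 5 (53466152 to 53657362). Its level is uncertain in a further way: the processed pseudogene Rbpj-ps3, which lies on chromosome 6, was given 176.7 and 12.9 expected counts (4.18 and 0.54 TPM), and reads of near-identical copies are shared out by the authors' estimation.

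The transcript to which Rbpj signal was assigned differed between the libraries. Rbpj-201 took 100% of the gene in replicate 1 (29.9 TPM) and 18.4% in replicate 2 (3.48 TPM), whereas Rbpj-203 took no count in replicate 1 and 81.7% in replicate 2 (15.5 TPM); Rbpj-202 had none in either. The 3 models differ in their first coding bases and have equal coding lengths after that. The coding starts are printed to show the bases in which these models differ. In each, lower case marks the bases of the model's own first coding exon and capitals the first shared coding exon (chr5:53627383-53627421), as the GENCODE M21 models of GRCm38 give them on the plus strand.
Rbpj-201: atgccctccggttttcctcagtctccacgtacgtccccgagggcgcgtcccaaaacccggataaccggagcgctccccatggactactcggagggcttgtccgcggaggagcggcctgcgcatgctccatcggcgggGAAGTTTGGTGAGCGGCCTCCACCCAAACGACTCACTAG
Rbpj-202: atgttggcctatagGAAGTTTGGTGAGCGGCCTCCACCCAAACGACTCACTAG
Rbpj-203: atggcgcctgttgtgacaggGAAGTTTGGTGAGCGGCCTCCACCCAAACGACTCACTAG
Rbpj-201 has 137 coding bases of its own (chr5:53590350-53590486), Rbpj-203 has 20 (chr5:53590705-53590724) and Rbpj-202 has 14 (chr5:53555890-53555903), so the coding lengths are 1578, 1461 and 1455 bases. The coding starts of Rbpj-201 and Rbpj-203 lie close together, and that of Rbpj-202 lies further upstream. The share of each model is the authors' estimate, and whether the pools used different starts was not tested.

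**Figure D3:**
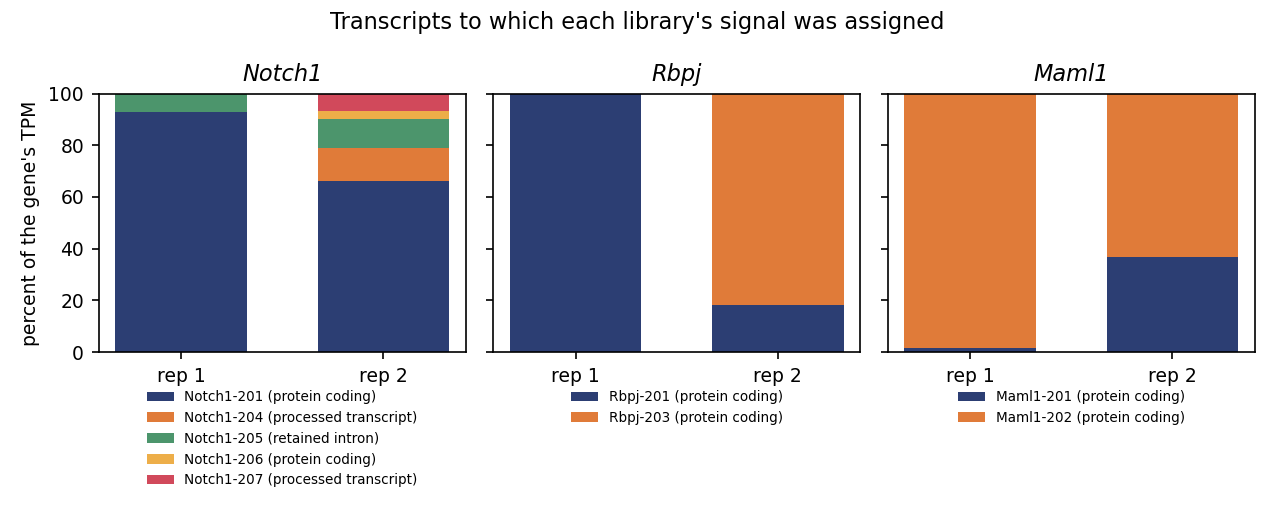
Stacked bars of the percent of each gene's TPM assigned to its transcripts in replicate 1 and replicate 2, for Notch1, Rbpj and Maml1. Notch1-201 and Maml1-202 are the larger part in both libraries, while Rbpj is all Rbpj-201 in replicate 1 and 81.7% Rbpj-203 in replicate 2.

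Maml1, a Mastermind coactivator that bridges the Notch and RBPJ complex to histone acetyltransferases, moved least of the detected Notch genes between the libraries by gene TPM. It stood at 8.37 and 8.83 TPM in replicates 1 and 2 (8.60 ± 0.33), from 1292 and 804 expected counts, a log2 difference of -0.07 that became -0.24 with TMM-scaled counts. On that count scale Notch2 (0.10) and Notch1 (-0.14) moved less, and by protein coding transcripts Notch1 did (-0.03 against -0.07). The log2 ratio of Maml1 to the summed receptors was -2.66 and -2.63 (-2.65 ± 0.02), so the receptors summed to 6.34 and 6.19 times the level of Maml1. With protein coding transcripts alone that ratio spread more (-2.53 ± 0.15). Maml1-202 carried 98.3% of the gene in replicate 1 and 63.2% in replicate 2, and Maml1-201 carried 1.72% and 36.8%. The antisense gene Gm26542 overlaps Maml1 and had 30 and 46 expected counts, and, with strand handling not given in the sources used here, those reads cannot be told apart from Maml1 with certainty. Among its relatives, Maml3 was higher (19.2 and 14.2 TPM) and Maml2 lower (3.48 and 5.04 TPM), an order held in both libraries.

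Of the 4 target genes, Dtx4 and Nrarp were detected and Hes1 and Hey1 were not. Dtx4, of the Deltex family of ubiquitin ligases, stood at 2.98 and 4.67 TPM in replicates 1 and 2 (3.83 ± 1.20), from 539 and 478 expected counts. Nrarp, a small ankyrin-repeat protein that is induced by Notch and feeds back on the Notch complex, stood at 4.69 and 1.82 TPM in replicates 1 and 2 (3.26 ± 2.03), from 370 and 81 expected counts. Dtx4 was higher in replicate 2 and Nrarp in replicate 1, so their order turned: the log2 ratio of Nrarp to Dtx4 was 0.65 in replicate 1 and -1.36 in replicate 2. The exact 95% Poisson intervals of Nrarp, 4.22 to 5.19 TPM and 1.45 to 2.26 TPM, do not overlap, and neither do those of Dtx4 (2.73 to 3.24 and 4.26 to 5.11 TPM), so counting error alone does not cover either difference. These intervals take each read as an independent molecule, which amplified reads without molecular identifiers are not.

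Hes1, a transcriptional repressor and the textbook Notch target, had no count in replicate 1 and 8 expected counts in replicate 2 (0.33 TPM, exact 95% Poisson interval 0.14 to 0.65 TPM). A count of 0 allows up to 0.0695 TPM in replicate 1, taking 3 counts as the limit. Hey1, a repressor of the related Hey family known from endothelium and heart, had no count in replicate 1, which allows up to 0.0406 TPM, and 3 expected counts in replicate 2 (0.29 TPM). All of the Hey1 counts were put on the retained-intron model Hey1-202, and its protein coding transcripts had none in either library. Replicate 1 often held no read of genes at this level. Where replicate 2 gave a nuclear coding gene 0.1 to 1 TPM, replicate 1 lacked any count for 65.6% of 1874 genes (exact binomial limits 63.4 and 67.7). In the other direction, 7.89% of 583 genes (limits 5.83 and 10.4) lacked a count. No difference between the libraries is therefore read from Hes1 or Hey1, and their level is best bounded by replicate 2. The authors' credibility interval for Hes1 in replicate 2 reaches from 0.32 to 1.71 TPM, which is wider than counting error. In replicate 1 their intervals reach up to 0.70 TPM for Hes1 and 0.29 TPM for Hey1, above the limits taken from 3 counts.

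Set against the receptors in the same library, where depth and scaling cancel, the target genes were low. Their summed TPM was 7.67 in replicate 1 and 7.11 in replicate 2, beside 53.1 and 54.7 TPM for the receptors. The log2 ratio of targets to receptors was -2.79 in replicate 1 and -2.94 in replicate 2 (-2.87 ± 0.11), so the receptors summed to 6.92 and 7.69 times the level of the targets. The ratio was close between the libraries although its parts were not: Nrarp gave most of the target sum in replicate 1 and Dtx4 in replicate 2. With protein coding transcripts alone it was -2.77 ± 0.03. The ratio compares RNA levels of different genes and carries no scale for signalling, since the series has no library with the pathway blocked or stimulated.

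Between the 2 libraries, 1 of the 6 detected Notch genes was over 2-fold apart, Nrarp, at 1.01 on the log2 scale. Among the 12862 genes detected in either library, 27.1% were over 2-fold apart, 13.1% higher in replicate 1 and 14.0% higher in replicate 2. With protein coding transcripts alone the share was 25.8% of 10817 genes, and Nrarp was again the Notch gene over 2-fold apart. The median difference was 0.07 over the 6 Notch genes and 0.10 over all 12862. Nrarp lies at the edge of the 2-fold mark: with FPKM its difference was 0.94 and with a pseudocount of 5 it was 0.51. In the other scalings and filters tried it was 1.01 to 1.32, higher in replicate 1 in all. Dtx4, at -0.51, was the next in size among target genes, and Rbpj, at 0.63, among the nuclear partners.

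**Figure D4:**
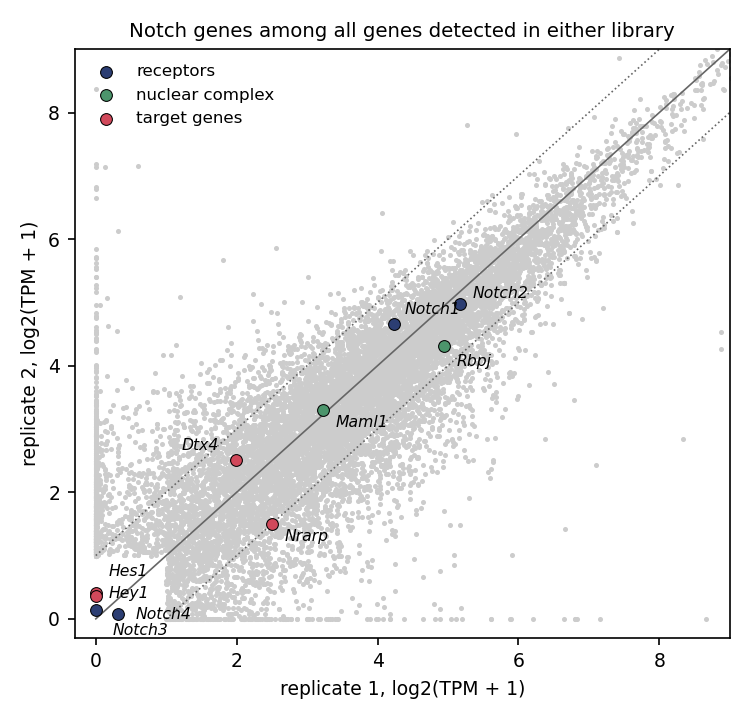
Each grey point is a gene detected in either library, with log2(TPM + 1) in replicate 1 on the horizontal axis and in replicate 2 on the vertical axis, up to 9; coloured points are the 10 Notch genes, the solid line marks equal levels and dotted lines mark a 2-fold difference. Nrarp falls on the dotted line of genes higher in replicate 1, and the other detected Notch genes lie between the dotted lines.

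Ligand transcripts were scarce. None of 7 ligand genes was detected in either library, beside 26.4% of all mouse genes and 47.6% of protein coding genes detected in replicate 1 and 27.9% and 50.1% in replicate 2, with a summed level of 0.40 and 1.39 TPM in replicates 1 and 2. Jag2, of the Jagged ligands, was highest and had counts in both, 51 (0.40 TPM) and 45 (0.63 TPM). The other 6 had no count in replicate 1, where 3 counts correspond to between 0.0170 TPM for Jag1 and 0.0563 TPM for Dlk2. In replicate 2 the Jagged ligand Jag1 had 13 expected counts (0.27 TPM), the Delta-like ligand Dll4 had 6 (0.09 TPM), the atypical ligand Dlk1 had 5 (0.25 TPM) and the divergent ligand Dll3 had 2 (0.15 TPM). Dll1, the Delta-like ligand that acts on Notch2 in the spleen, and the atypical ligand Dlk2 had no count in either library. The ligands thus lay below the detected receptors in both libraries, Jag2 at 0.40 and 0.63 TPM against Notch1 at 17.8 and 24.2 TPM.

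Of the genes for enzymes that add sugars to the receptors, 5 of 5 were detected in both libraries, beside 45.5% of protein coding genes. The Fringe enzymes, which extend the fucose on Notch and so shift its response between Delta-like and Jagged ligands, were led by Mfng (27.3 and 24.7 TPM), with Rfng at 15.3 and 17.6 TPM and Lfng at 9.0 and 13.8 TPM. Mfng was above Lfng in both libraries by gene TPM, with log2 ratios of 1.60 and 0.84, but with protein coding transcripts alone the values were 0.63 and -0.14. Pofut1, which adds the fucose itself, stood at 16.6 and 13.7 TPM, and the glucosyltransferase gene Poglut1 at 7.27 and 11.3 TPM. None of the 5 was over 2-fold apart by gene TPM, beside 27.1% of all genes detected in either library. By protein coding transcripts, however, Pofut1 stood at 3.39 and 9.49 TPM (log2 difference -1.26), higher in replicate 2.

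Of 10 genes for receptor cleavage, 8 were detected in both libraries, beside 45.5% of protein coding genes. None was over 2-fold apart, beside 27.1% of all detected genes by gene TPM and 25.8% by protein coding transcripts. Adam10, the protease that makes the ligand-dependent cut, stood at 50.01 and 44.2 TPM in replicates 1 and 2. The gamma-secretase subunit genes Psenen (77.6 and 53.7 TPM) and Ncstn (53.8 and 39.9 TPM) were above Notch2 in both libraries by gene TPM. Over protein coding transcripts Psenen was unchanged, whereas Ncstn stood at 23.4 and 18.1 TPM, below Notch2 in both libraries. Of the Aph1 subunit genes, Aph1a was detected (9.02 and 12.9 TPM), whereas Aph1b (0 and 0.96 TPM) and its close copy Aph1c (0 and 0.68 TPM) had no count in replicate 1 and stayed under 1 TPM in replicate 2. Aph1b and Aph1c share reads, so their split is uncertain.

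All 8 nuclear coactivators and 13 of 14 nuclear corepressors were detected in both libraries, beside 45.5% of protein coding genes. The acetyltransferase genes Ep300 (58.7 and 55.1 TPM), Crebbp (42.4 and 38.4 TPM) and Kat2a (27.6 and 29.7 TPM by gene, but 17.6 and 6.99 TPM by protein coding transcripts), and Zmiz1 (91.5 and 61.8 TPM), a Notch1 cofactor in T cell progenitors, led the coactivators. Kat2b, another acetyltransferase, was 2-fold higher in replicate 1 by gene TPM (32.9 and 15.8 TPM, log2 difference 1.01), but by protein coding transcripts the difference was -0.65. Snw1, the SKIP adaptor of RBPJ, was higher in replicate 2 (5.74 and 17.1 TPM, log2 difference -1.43). Ncor1, a corepressor scaffold that binds histone deacetylases, was the most abundant corepressor gene, at 250.1 and 218.8 TPM. The corepressor gene Ctbp1 stood at 79.9 and 77.6 TPM, and Spen, a direct partner of RBPJ in repression, at 51.6 and 70.3 TPM. Tle1, a Groucho corepressor, was higher in replicate 1 (13.4 and 2.83 TPM, log2 difference 1.91) and L3mbtl3, a chromatin reader that binds RBPJ, higher in replicate 2 (1.67 and 4.82 TPM, log2 difference -1.12). Rbpjl, a relative of Rbpj known from the pancreas, had no count in either library.

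Of 17 genes for trafficking and turnover of Notch, 15 were detected in both libraries, beside 45.5% of protein coding genes. Nedd4 (123.2 and 126.0 TPM) and Itch (23.8 and 19.6 TPM) encode ubiquitin ligases of the same family, Mib1 (16.1 and 20.2 TPM) the ligase that acts on ligands in the sending cell, and Dtx3 (88.7 and 78.3 TPM) a relative of Dtx4. Within the Deltex family Dtx3 was thus well above Dtx4, while Dtx1, itself a Notch target in T cells, had no count in either library. Dtx2, another Deltex gene, was higher in replicate 1 (28.5 and 5.18 TPM, log2 difference 2.26). Numb, an inhibitor that sends Notch to endosomes, was higher in replicate 1 by gene TPM (18.9 and 8.06 TPM, log2 difference 1.14) and lower by protein coding transcripts (-1.47). Neurl1a, a Neuralized ligase gene, had no count in replicate 1 and 2 in replicate 2 (0.03 TPM).

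Of 17 other genes reported as Notch targets, 9 (52.9%) were detected in both libraries, near the 45.5% of protein coding genes. They were led by the growth regulator Myc (287.2 and 171.7 TPM) and the stem cell factor gene Runx1 (113.3 and 84.9 TPM), both of which many other pathways also control, with the survival gene Bcl2 at 18.6 and 13.2 TPM. The remaining Hes and Hey genes were mostly at or near 0: Hes7, Hey2 and Heyl had no count in either library and Hes5 had 5 expected counts in replicate 2 alone (0.64 TPM). Hes6, which in contrast to Hes1 is known to relieve Hes1 repression, was detected at 5.35 and 4.42 TPM, although its protein coding transcripts held 0 and 1.54 TPM. Of the T lineage targets, Ptcra, the pre-T cell receptor chain, had no count in either library, the cytokine receptor gene Il2ra stood at 0.51 and 0 TPM, and the T lineage factor gene Bcl11b at 0.71 and 0.10 TPM. The T lineage factor genes Gata3 (14.98 and 3.03 TPM, log2 difference 1.99) and Tcf7 (4.37 and 0.19 TPM, log2 difference 2.17) were higher in replicate 1, Gata3 by only 0.22 with protein coding transcripts alone. Il7r, the receptor gene for the lymphoid cytokine interleukin 7, was detected in both libraries (3.29 and 1.66 TPM). Ccnd1, the cyclin D1 gene, was 48.6 and 4.57 TPM in replicates 1 and 2 (log2 difference 3.15), but by protein coding transcripts lower in replicate 1 (-2.15). Replicate 1 also held the T cell genes Cd3e and Cd3g, which had no count in replicate 2. Lck (1.19 and 6.95 TPM) and Lat (1.98 and 4.62 TPM) were instead higher in replicate 2. All 10 T cell markers summed to 10.6 and 12.6 TPM, and the part of any T lineage cell in these values was not tested.

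Over all 78 other pathway genes, 58 (74.4%) were detected in both libraries, beside the 45.5% of protein coding genes. Of the 59 detected in either library, 7 were over 2-fold higher in replicate 1 and 2 were over 2-fold higher in replicate 2, with a median difference of 0.14 against 0.10 over all 12862 genes, of which 13.1% were over 2-fold higher in replicate 1 and 14.0% in replicate 2. With protein coding transcripts alone, a setting chosen after the data were seen, the balance turned: of 58 genes 4 were over 2-fold higher in replicate 1 and 7 in replicate 2, beside 10.9% and 15.0% of 10817 genes. Tle1, Dtx2, Tcf7, Snw1 and L3mbtl3 were called in the same direction on both scales. The genes without detection were thus all 7 ligands, 2 cleavage genes, 1 corepressor, 2 trafficking genes and 8 targets, counting Tcf7, which was detected in replicate 1 alone. Detection in both libraries fell to 53 of the 78 genes with protein coding transcripts alone, a scale on which no share over all genes was computed.

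**Figure D5:**
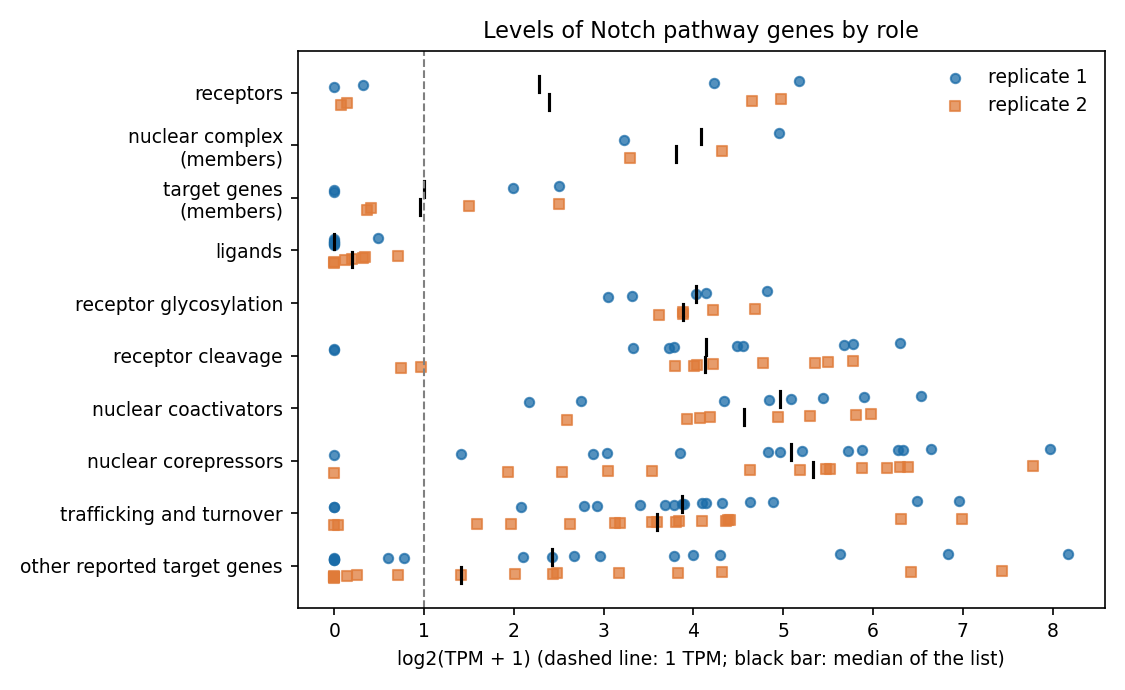
Each point is a Notch pathway gene at its log2(TPM + 1), grouped by role, with circles for replicate 1 above squares for replicate 2 and a black bar at each list's median; the dashed line marks 1 TPM. All ligands lie left of the dashed line in both libraries, the glycosylation enzymes and coactivators all lie right of it, and receptors and targets lie on both sides.

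The protein coding genes with levels most like those of Notch2 and of Dtx4, the receptor and the target of highest mean TPM, were found by distance in log2(TPM + 1) over the 2 libraries, although Dtx4 and Nrarp overlapped in range. Nearest to Notch2 among 21473 genes was Wdr1, an actin disassembly factor (35.0 and 30.04 TPM, distance 0.014), followed by Abhd16a and Fbrs. Nearest to Dtx4 was Dnajc4, of the DnaJ chaperone family (3.00 and 4.58 TPM, distance 0.024), followed by Zfp46 and the linker histone gene H1fx. With 2 libraries, this likeness says only that the levels were close.

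Promoter windows of 7 of the 10 genes were found in the RefSeq table for GRCm38.p6, 8 windows in all, each from 250 bases before to 50 bases after a start. Their GC content ran from 58.3 to 73.0% with a median of 65.8%, against a median of 52.7% over all 32851 windows of the table. Their observed over expected CpG ratio had a median of 0.81, against 0.38. The windows of the undetected genes Notch3 (70.0% GC) and Notch4 (58.3% GC) stood at either side of that median. The motif TGGGAA, the core that RBPJ is known to bind, was searched on both strands. It was found in 2 of the 8 windows, both of them Rbpj, beside 25.6% of all windows. These 2 windows overlap (53590096 to 53590395 and 53590236 to 53590535), so a match can fall in both. Upstream bases are printed for Rbpj, for Nrarp as the target that differed most between the libraries, and for the reported target Hes5, on the plus strand, 5′ to 3′, up to the first annotated exon, with any TGGGAA or its reverse complement TTCCCA in capitals.
Rbpj (chr5:53590096-53590213): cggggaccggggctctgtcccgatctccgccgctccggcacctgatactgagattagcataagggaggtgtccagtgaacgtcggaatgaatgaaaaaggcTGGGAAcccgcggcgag
Nrarp (chr2:25180508-25180757): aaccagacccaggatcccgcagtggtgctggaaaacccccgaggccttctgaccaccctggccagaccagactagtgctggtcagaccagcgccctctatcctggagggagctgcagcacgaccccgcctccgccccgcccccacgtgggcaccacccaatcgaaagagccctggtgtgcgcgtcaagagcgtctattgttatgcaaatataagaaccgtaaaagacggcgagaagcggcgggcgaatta
Hes5 (chr4:154960673-154960769): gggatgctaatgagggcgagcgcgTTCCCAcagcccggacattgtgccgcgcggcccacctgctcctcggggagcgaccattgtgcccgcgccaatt
The Rbpj and Hes5 stretches each hold 1 match and the Nrarp stretch holds none. Nrarp, at 4.69 and 1.82 TPM, was detected with no such letters in this window, and Hes5, at 0 and 0.64 TPM, was not detected with a match in its own. A match describes the letters and not a bound site. Nrarp lies on chromosome 2 (25180758 to 25183339), 1.27 Mb from Notch1. The other targets and Maml1 lie on separate chromosomes: Hes1 on 16 (30064384 to 30067796), Hey1 on 3 (8663359 to 8667256), Dtx4 on 19 (12466338 to 12501454) and Maml1 on 11 (50255634 to 50292311).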

How the data were processed

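Gene and transcript tables of 2 libraries were used. The authors deposited expected counts, an estimate of the reads of each gene and transcript in which reads of several origins are divided. TPM and posterior mean TPM were deposited beside them, scaled to 1000000 per library, and FPKM was deposited in the same tables. The percent of a gene carried by each transcript and the credibility interval of each TPM were deposited too, the level of that interval not being stated. Column names are those RSEM writes, per the file headers; per the text deposited with each sample, the build is mm10 and the annotation GENCODE M4. Aligner, program version and strand setting: not given in the sources used here.

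Of 69691 table rows, 43346 name a mouse gene; the rest held 0.0120% and 0.00719% of expected counts in replicates 1 and 2 and were left out. GENCODE M21, of the same build (GRCm38), gave symbols, positions and classes for 42462 identifiers (98.0%) and the Rbpj coding sequences, whose models can differ in length from M4; promoters are RefSeq's. Expected counts were rounded for edgeR 4.0.16 and DESeq2 1.42.0 factors, which entered alternatives only. Other steps ran in Python 3.11.15 with pandas 2.3.3 and scipy 1.17.1. Calls and scripts were tested on simulated data.

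The 10 genes and all lists were chosen with earlier results of these data known. Named are the 10 genes, every ligand, the 4 genes of highest mean TPM and all over 2-fold apart in each other list, the highest and lowest gene of each marker list discussed, the 3 nearest genes, and transcripts with at least 10% of a gene in both libraries. Poglut1, Aph1a, Aph1b, Aph1c, Maml2, Maml3, Rbpjl, Dtx1, Neurl1a, Hes5, Hes6, Hes7, Hey2, Heyl, Ptcra, Il2ra, Bcl11b, Cd3e, Cd3g, Lat, Il7r, Cd8a, Cd8b1, Trac, Kdr, Egfl7, Tek, Emcn and the other transcripts were named after their values were seen. Some genes that the rule names are not reported here. Macrophage markers ran from C1qb (0 and 0 TPM) to Cd68 (5.47 and 5.07 TPM), megakaryocyte markers had Gp6 lowest (0 and 0.05 TPM), and erythroid markers from Alas2 (1.99 and 12.2 TPM) to Car1 (1333 and 1071 TPM).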

Additional observations from a re-analysis of the deposited data

How the results depend on the processing

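Of 99 alternative values, 80 lay within the spread of the libraries (or within 1.5 times a count) and 19 moved further. Counts, shares and levels cannot be negative, so only the log2 ratio of targets to receptors could change sign, and it did not. For shares, ratios and levels, leaving out either of 2 libraries always gives a value within their SD, so those alternatives could not move. The log2 ratio of targets to receptors of -2.87 became -4.07 from expected counts, -2.34 with 1 TPM added to each gene and -1.36 as a difference of medians, and -2.94 to -2.79 when either library was left out. The count of Notch genes over 2-fold apart fell to 0 with a pseudocount of 5 and with FPKM. With protein coding transcripts alone, a setting chosen after the data were seen, the other pathway genes over 2-fold higher in replicate 1 numbered 4, not 7, and those higher in replicate 2 numbered 7, not 2. Rescaling TPM over nuclear protein coding genes, which held 30.03% and 26.5% of TPM, raised all 10 levels. Posterior mean TPM raised Notch4 to 1.44 and Hes1 to 0.65 TPM, mostly through models with no count. Those levels are relative to the scale. The Notch2 share was 55.5 to 66.1% when either library was left out, and 56.2% with posterior mean TPM. The number of detected Notch genes was 6 in all alternatives but a threshold of 2 TPM, which gave 5. Over the scalings the median difference of all genes ran from -0.07 to 0.16. No paired analysis was possible because the 2 libraries form a single group. Genes under 1 TPM are bounded poorly in replicate 1.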
